A study of Mus musculus with 24 samples.

Results

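Cdx2 binding was described at 10 genes that mark colon stem cells or answer to Wnt signalling: Lgr5, Ascl2, Ephb2, Ephb3, Axin2, Sox9, Myc, Rnf43, Znrf3 and Smoc2. The genes were chosen by name, and a Cdx2 peak was assigned to one of them when its summit lay in the gene body or within 50 kb to either side. Peaks of 12 Cdx2 libraries that overlapped by at least 1 bp were joined into regions, and 30 of 61454 regions fell in the 10 windows. The libraries came from mouse colon organoids, which are epithelial structures grown from colon stem cells. They formed 4 groups of 3 biological replicates, from the proximal or the distal colon, each in WENR-plus or in WENR-minus medium. All organoids carried a heterozygous Cre-inducible BrafV600E allele and a heterozygous tdTomato reporter, both unrecombined for this experiment as far as the study describes it, and had been kept for 4 months in culture before chromatin was taken. WENR-plus medium contained Wnt3a, EGF, Noggin and R-spondin, and for WENR-minus the organoids had 2 days with these factors and then 3 days without them. The 12 matched input libraries served as controls for the peak calls and were not analysed here as samples of their own. Peak lists hold no RNA level, so neither the expression of these genes nor the labelled tissue could be checked. The lists carry no read totals, and the read depth that the study reports per library was not used here.

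Cdx2 is a homeobox transcription factor that maintains intestinal identity and drives the differentiation of the intestinal epithelium. At the crypt base, Wnt ligands bind Frizzled receptors and stabilise β-catenin, which acts on its targets with TCF/LEF factors. R-spondin binds receptors of the Lgr family and thereby keeps the ubiquitin ligases Rnf43 and Znrf3 from removing Frizzled from the membrane, while Axin2, itself a Wnt target, limits β-catenin.

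Rnf43 held the most Cdx2 regions and the steadiest ones. Of the 30 regions, 7 were at Rnf43, 4 each at Lgr5 and Znrf3, 3 each at Ephb2, Ephb3, Axin2 and Sox9, 2 at Myc, 1 at Ascl2 and 0 at Smoc2. Both of the regions that were called in all 12 libraries lay inside Rnf43, beside 3.38% of all 61454 regions. Beyond Rnf43, the steadiest regions lay 13.3 kb upstream of Axin2 (11 libraries), 6.2 kb upstream of Ephb2 (10 libraries) and 47.2 kb downstream of the start of Axin2 (7 libraries). At the other end, 11 of the 30 regions (36.7%) were called in 1 library, beside 42.2% of all regions, and 5 of those 11 were in the second proximal WENR-plus library, whose list was the longest at 42192 peaks. Of the 30, 18 were called at both sites, 11 in proximal libraries alone and 1 in a distal library alone. The share in proximal libraries alone was 36.7%, beside 56.4% of all regions. With all lists held to the shortest length of 5608 peaks, the Axin2 region 13.3 kb upstream was in 5 libraries and the Ephb2 region 6.2 kb upstream in 10.

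**Figure D1:**
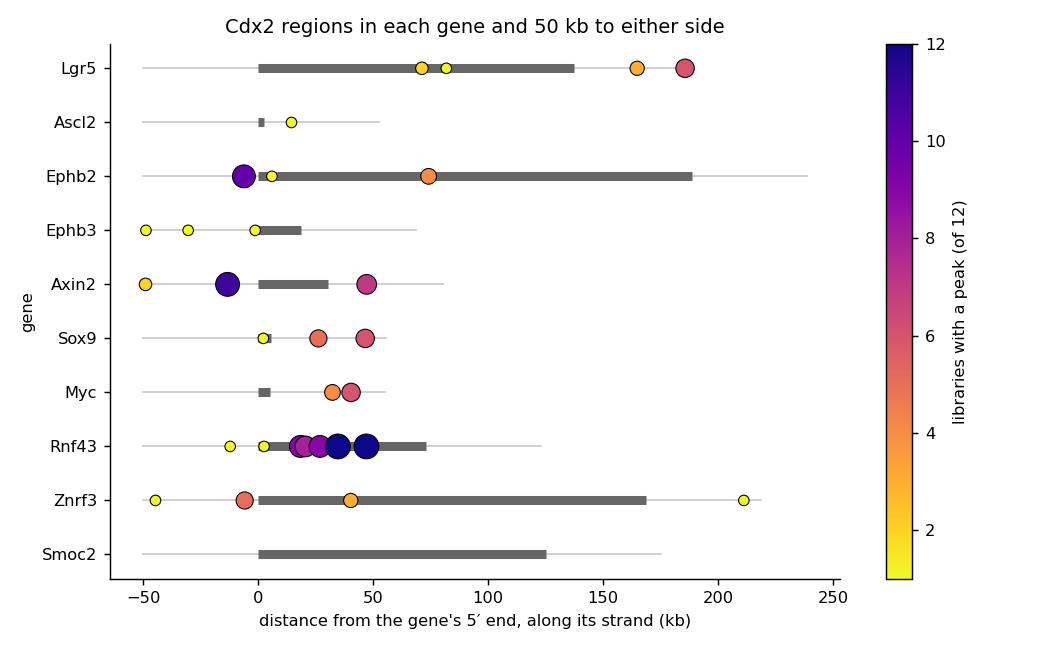
Position of the 30 Cdx2 regions in the 10 windows, in kb from the 5′ end of each gene along its strand (x axis), with the gene body as a thick bar and the 50 kb flanks as a thin line. The size and colour of a point give the number of libraries with a peak, from 1 to 12: the 5 largest intragenic points lie in Rnf43, and Smoc2 has none.

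Most regions lay away from the starts of the member genes. Against every annotated transcript start of the member gene, 26 of 30 median summits were more than 3 kb away. By location 17 summits were intronic, 13 intergenic and 0 exonic, and 12 lay inside the body of the member itself. These shares were not computed over all regions, so the counts have no background. The study, measuring from the start of any gene, also places most Cdx2 sites in introns or between genes and a minority at promoters. The 4 regions within 3 kb were single-library peaks at Ephb3 (1275 bp upstream), Sox9 (2266 bp downstream) and Rnf43 (763 bp downstream of a transcript start), and the Rnf43 region 34.7 kb into the gene, which lay 2484 bp upstream of the start of a shorter Rnf43 transcript. A member was the nearest protein-coding start for 23 of the 30 regions. The 2 regions downstream of Lgr5 lay in introns of Zfc3h1, and 1 single-library region of the Ephb3 window lay 2.01 kb from the start of Teddm3, so an assignment to the member by distance is only that.

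The sequences below are 151 bases of the mm10 plus strand around the median summit, shown for the regions on which the results turn: 4 in Rnf43, then those in the most libraries at Axin2, Ephb2 and Lgr5, and the 2 that were called in proximal WENR-plus libraries and in no proximal WENR-minus library. Capitals mark the Cdx2 letters on either strand, searched in 4 forms: TTTATGA as the first, TTTATGG as the second, TTTATTA as the third and TTTATTG as the fourth. A form on the minus strand stands as its reverse complement. The name gives the distance of the summit in kb from the 5′ end of the gene, negative when upstream.
Rnf43 +18.4 kb, chr11:87681025-87681175: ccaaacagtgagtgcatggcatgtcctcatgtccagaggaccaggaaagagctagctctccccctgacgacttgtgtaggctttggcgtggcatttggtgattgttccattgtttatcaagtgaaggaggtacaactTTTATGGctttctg
Rnf43 +26.9 kb, chr11:87689529-87689679: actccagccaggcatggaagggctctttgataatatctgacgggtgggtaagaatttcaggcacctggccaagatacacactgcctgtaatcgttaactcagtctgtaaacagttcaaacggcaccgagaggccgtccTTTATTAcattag
Rnf43 +34.7 kb, chr11:87697338-87697488: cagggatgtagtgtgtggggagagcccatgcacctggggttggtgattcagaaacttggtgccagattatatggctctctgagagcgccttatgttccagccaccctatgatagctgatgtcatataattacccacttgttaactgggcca
Rnf43 +47.1 kb, chr11:87709731-87709881: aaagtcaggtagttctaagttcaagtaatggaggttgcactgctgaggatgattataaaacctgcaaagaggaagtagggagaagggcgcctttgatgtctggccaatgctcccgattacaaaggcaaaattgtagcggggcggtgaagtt
Axin2 -13.3 kb, chr11:108907000-108907150: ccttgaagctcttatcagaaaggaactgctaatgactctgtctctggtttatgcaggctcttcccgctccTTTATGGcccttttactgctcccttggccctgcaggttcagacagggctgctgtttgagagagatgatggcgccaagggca
Ephb2 -6.2 kb, chr4:136842082-136842232: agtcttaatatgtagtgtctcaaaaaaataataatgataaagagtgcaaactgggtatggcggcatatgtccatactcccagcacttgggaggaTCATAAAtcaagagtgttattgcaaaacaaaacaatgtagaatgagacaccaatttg
Lgr5 +185.6 kb, chr10:115402142-115402292: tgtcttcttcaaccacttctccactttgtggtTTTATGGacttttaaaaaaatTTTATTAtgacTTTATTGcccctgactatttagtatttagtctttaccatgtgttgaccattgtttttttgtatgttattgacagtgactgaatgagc
Ephb2 +74.1 kb, chr4:136761801-136761951: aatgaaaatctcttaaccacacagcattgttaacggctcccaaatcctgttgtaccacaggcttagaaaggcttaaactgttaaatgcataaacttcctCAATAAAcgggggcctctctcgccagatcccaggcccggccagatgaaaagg
Myc +32.3 kb, chr15:62017637-62017787: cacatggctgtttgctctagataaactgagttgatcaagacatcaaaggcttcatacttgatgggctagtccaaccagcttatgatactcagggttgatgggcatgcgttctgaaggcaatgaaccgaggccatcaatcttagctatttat

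The letters were present within 50 bp of the median summit at 16 of 30 member regions (53.3%, 95% Wilson interval 36.1% to 69.8%, for counting error only), beside 60.4% of all regions and 11.7% of windows of the same length placed 1000 bp to either side of each summit. At Axin2 the centre of TTTATGG was 2 bp from the summit, and the Lgr5 region held 3 matches. At 4 of the 5 recurrent regions of Rnf43 the letters were not within 50 bp of the median summit. The nearest match was 65 bp away at the +18.4 kb region, 66 bp at +26.9 kb, 81 bp at +34.7 kb and 106 bp at +47.1 kb, and the +20.6 kb region held it at 29 bp. The summits called for single libraries moved by up to 243 bp within these regions, and the letters were within 50 bp of the library's own summit in 4 of 12 libraries at +34.7 kb and in 1 of 12 at +47.1 kb. Over all 2079 regions called in 12 libraries the share with the letters was 73.6%. The TCF/LEF letters CTTTGAT were within 100 bp of the summit at 3 member regions (10%, interval 3.46% to 25.6%, beside 5% of all regions): Rnf43 +26.9 kb, Rnf43 +47.1 kb and Myc +32.3 kb. The GATA letters AGATAA were there at 7 regions (23.3%, beside 19.6%) and the HNF4 letters CAAAGTCC at 1, in Znrf3 (3.33%, beside 1.48%).

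**Figure D2:**
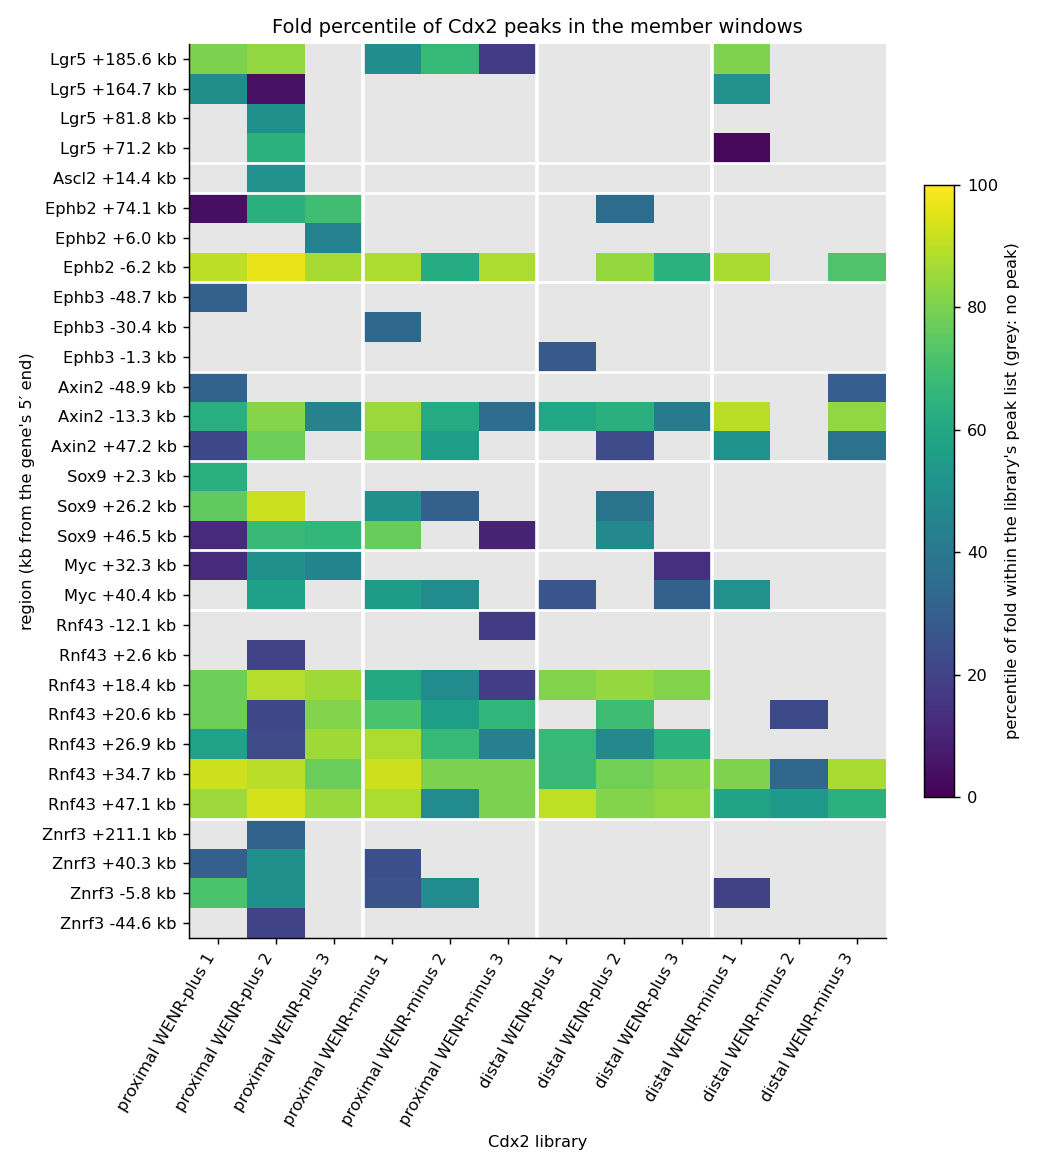
Percentile of the fold over input within each library's own peak list (colour, 0 to 100) for the 30 regions (y axis) in the 12 libraries (x axis), with grey where no peak was called. Rnf43 +34.7 kb and +47.1 kb are coloured in every column, and the last 3 columns, distal WENR-minus, are grey at Rnf43 +18.4 kb and +26.9 kb.

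Strength was read as fold over the matched input and as its percentile within the list of the library, where 100 is the strongest peak. The median percentile of a region was taken over the libraries that called it, so libraries without a peak did not lower it. Median percentiles of the 30 regions ran from 17.7 to 87, with a median of 49.6, beside 40.6 over all regions and 88.6 over the regions in all 12 libraries. The strongest was the Ephb2 region 6.2 kb upstream of the start, at a median percentile of 87. Rnf43 +47.1 kb followed at 82.6, then Rnf43 +18.4 kb at 81, over the 9 libraries that called it, and Rnf43 +34.7 kb at 80.4. Both Rnf43 regions in all 12 libraries thus stood below the median of such regions.

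Rnf43 encodes a membrane ubiquitin ligase that clears Frizzled receptors, and its gene spans chr11:87662722-87735539 on the plus strand. The region at +34.7 kb (chr11:87696922-87697827) had folds of 10.5, 9.5 and 9 in proximal WENR-plus, 10.7, 8.32 and 8.96 in proximal WENR-minus, 7.27, 8.26 and 9.27 in distal WENR-plus, and 7.1, 5.18 and 9.61 in distal WENR-minus. The 4 groups overlapped. The region at +47.1 kb (chr11:87709404-87710559) had folds of 8.24, 11.3 and 10.6 in proximal WENR-plus, 8.87, 5.66 and 8.89 in proximal WENR-minus, 10.1, 8.44 and 9.39 in distal WENR-plus, and 5.49, 5.92 and 6.64 in distal WENR-minus. Here the distal WENR-minus libraries were lower than all distal WENR-plus libraries, and in proximal organoids the media overlapped.

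The regions at +18.4 kb (chr11:87680721-87681365) and +26.9 kb (chr11:87689467-87689893) were each called in 9 libraries, and the 3 without a peak were the same at both: all distal WENR-minus libraries. At +18.4 kb the folds were 6.97, 9.25 and 11 in proximal WENR-plus, 5.38, 5.66 and 4.6 in proximal WENR-minus, and 8.38, 8.88 and 8.96 in distal WENR-plus. Withdrawal of the factors thus went with lower folds in every proximal library and with no call in any distal one. At +26.9 kb the folds were 5.68, 4.38 and 11 in proximal WENR-plus, 8.87, 6.72 and 5.55 in proximal WENR-minus, and 7.05, 5.77 and 7.25 in distal WENR-plus, with no such order in proximal organoids. Between them lay a region at +20.6 kb that all 6 proximal libraries, distal WENR-plus 2 and distal WENR-minus 2 held. Counted over the gene, proximal libraries held 5, 6 and 5 Rnf43 regions with the factors and 5, 5 and 6 without them. Distal libraries held 4, 5 and 4 with the factors and 2, 3 and 2 without them. The distal WENR-minus lists held 21040, 7895 and 7904 peaks and the distal WENR-plus lists 7378, 13371 and 5608, and the 2 sets overlapped in length. With all lists held to 5608 peaks, +34.7 kb was left in 12 libraries, +47.1 kb in 10, +18.4 kb in 5 and +26.9 kb in 4. With the factors, +18.4 kb was then in 2 proximal and 3 distal libraries. Without them it was in 0 libraries of either site. The +26.9 kb region was in 1 proximal library of each medium. In distal organoids it was in 2 libraries with the factors and in 0 without them.

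**Figure D3:**
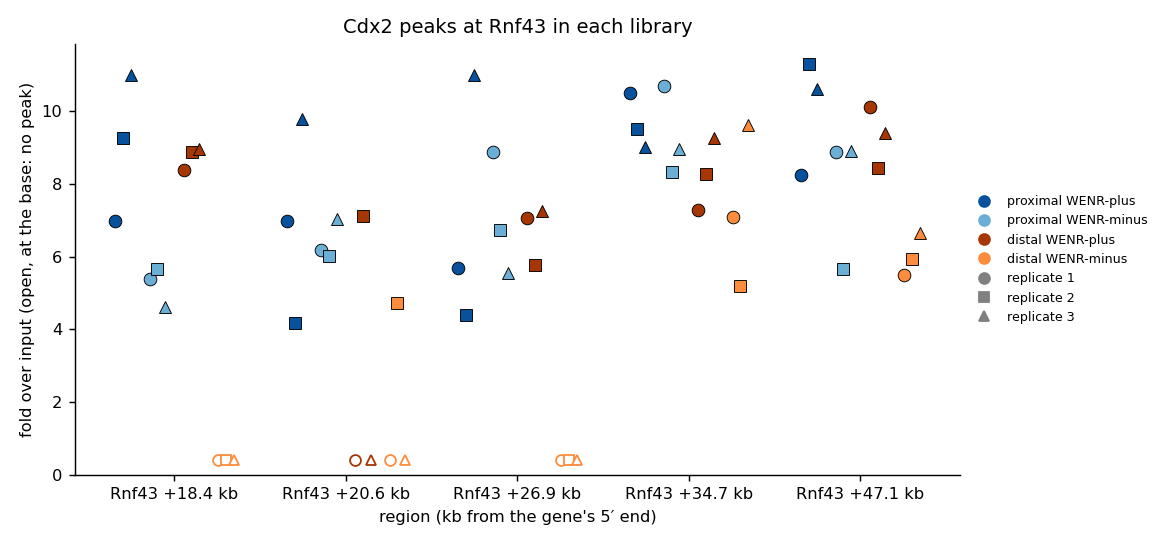
Fold over input (y axis) of each Cdx2 peak at the 5 Rnf43 regions called in more than 1 library (x axis), coloured by group and shaped by replicate, with open symbols at the base for libraries without a peak. All 3 distal WENR-minus libraries are open at +18.4 kb and +26.9 kb, and at +47.1 kb they lie between 5.49 and 6.64, under the 3 distal WENR-plus libraries.

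Axin2, a scaffold of the complex that destroys β-catenin, had its steadiest region 13.3 kb upstream of the start (chr11:108906920-108907388, intergenic). Folds there were 5.7, 7.52 and 5.87 in proximal WENR-plus, 8.31, 6.37 and 5.18 in proximal WENR-minus, 6.61, 6.66 and 5.97 in distal WENR-plus, and 8.71 and 8.74 in distal WENR-minus 1 and 3, while distal WENR-minus 2 had no peak. The groups overlapped apart from distal WENR-minus, whose 2 called libraries were above the others. Distal WENR-minus 2 held 3 member regions in all, all of them in Rnf43. The Axin2 region at +47.2 kb, 16.8 kb past the end of the gene, was called in 4 proximal and 3 distal libraries.

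Ephb2 and Ephb3 are receptors for ephrin-B ligands that place cells along the crypt axis. The Ephb2 region 6.2 kb upstream of the start (chr4:136841787-136843438) had folds of 9.51, 14.7 and 11.4 in proximal WENR-plus, 8.87, 6.47 and 10.7 in proximal WENR-minus, 8.88 and 7.25 in distal WENR-plus 2 and 3, and 8.34 and 7.34 in distal WENR-minus 1 and 3. It spanned 1652 bp, with summits up to 975 bp apart between libraries, so more than 1 peak had been joined in it. A region in an Ephb2 intron at +74.1 kb (chr4:136761707-136762036) was called in proximal WENR-plus at folds of 3.57, 5.72 and 7.83, in distal WENR-plus 2 at 5.33, and in 0 of 6 WENR-minus libraries. Ephb3 had 3 regions, each called in 1 library. The one with the highest percentile lay 30.4 kb upstream (chr16:21174068-21174409), with a fold of 4.3 in proximal WENR-minus 1 at percentile 33.5.

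Lgr5, the R-spondin receptor that marks crypt base stem cells, and Znrf3, the paralogue of Rnf43, were called less steadily. The Lgr5 region in the most libraries lay 185.6 kb from its start and 48.1 kb past its end (chr10:115402049-115402364), in an intron of Zfc3h1, the gene with the nearest protein-coding start at 17.3 kb. Its folds were 7.29 and 7.84 in proximal WENR-plus 1 and 2, 4.84, 6.72 and 4.44 in proximal WENR-minus, and 7.1 in distal WENR-minus 1. It was thus present in 5 of 6 proximal and 1 of 6 distal libraries, and that 1 had the longest distal list. With all lists held to 5608 peaks it was in 0 proximal libraries and 1 distal library. Inside Lgr5 itself, 2 intronic regions were called in 1 and 2 libraries. At Znrf3, 5.8 kb upstream of the start (chr11:5450291-5450843), folds were 6.34 and 5.02 in proximal WENR-plus 1 and 2, 4.15 and 5.66 in proximal WENR-minus 1 and 2, and 4.2 in distal WENR-minus 1. With all lists held to 5608 peaks this Znrf3 region was in 0 libraries. The other 3 regions of the Znrf3 window were in 1 to 3 libraries, all of them proximal.

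Among the transcription factors, Ascl2, which specifies intestinal stem cells, had 1 region, 12.0 kb past its end (chr7:142954771-142954975), with a fold of 5.14 in proximal WENR-plus 2. Sox9, a factor of crypt progenitors, had its steadiest region 46.5 kb downstream (chr11:112828498-112829217), in an intron of the lincRNA gene 4933434M16Rik. Folds were 4.12, 5.96 and 7.64 in proximal WENR-plus, 6.72 and 4.07 in proximal WENR-minus 1 and 3, and 5.77 in distal WENR-plus 2, which made 5 of 6 proximal and 1 of 6 distal libraries. With lists of 5608 peaks 1 proximal library was left. At Myc, a driver of cell growth, both regions were intergenic and downstream. The one at +40.4 kb (chr15:62025516-62025962) had folds of 5.33 in proximal WENR-plus 2, 5.1 and 5.66 in proximal WENR-minus 1 and 2, 5.29 and 5.55 in distal WENR-plus 1 and 3, and 5.16 in distal WENR-minus 1. With full lists these calls were even over sites and media, and with lists of 5608 peaks 1 distal WENR-plus library was left. The one at +32.3 kb (chr15:62017552-62017872) had folds of 4.12, 5.02 and 6.15 in proximal WENR-plus and 5.02 in distal WENR-plus 3, and it was called in 0 of 6 WENR-minus libraries. Smoc2, a secreted matricellular protein found in Lgr5+ cells, had no region in any of the 12 lists within its window of 225285 bp.

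Whether sites and media differed was asked first of presence. A difference was counted where all 3 libraries of one group and no library of the other had the peak, and 3 libraries against 3 cannot give an exact p below 0.1. Within WENR-plus medium, 0 of 28 member regions were in all proximal and no distal libraries (5.44% of 53039 regions called in any of these libraries) and 0 were the reverse (0.173%). Without proximal WENR-plus 3 the first of these counts was 4, without distal WENR-plus 2 it was 3, and without distal WENR-plus 3 it was 1. Within WENR-minus, 2 of 19 were in all proximal and no distal libraries (3.27% of 38363), Rnf43 +18.4 kb and +26.9 kb, and 0 were the reverse (0.534%). Between media in proximal organoids, 2 of 29 were in all WENR-plus and no WENR-minus libraries (0.795% of 57245), Ephb2 +74.1 kb and Myc +32.3 kb, and 0 were the reverse (0.128%). Between media in distal organoids, 2 of 19 were in all WENR-plus and no WENR-minus libraries (0.295% of 26781), again Rnf43 +18.4 kb and +26.9 kb, and 0 were the reverse (0.941%). The Rnf43 regions enter both of these counts through the same 3 distal WENR-minus libraries. The proximal lists were longer on the whole, at 11409 to 42192 peaks against 5608 to 21040 distal. With all lists held to 5608 peaks, only Rnf43 +18.4 kb between media in distal organoids was left of these differences.

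With the 2 media pooled (6 proximal against 6 distal libraries), 14 of the 19 member regions called in at least 2 libraries were in more proximal libraries, 5 were equal and 0 were in more distal ones. Over all 35518 regions 76.3% were in more proximal libraries and 5.89% in more distal ones. With sites pooled, 9 of 19 were in more WENR-plus libraries (47.4%, beside 39.5% of all regions) and 7 were equal. The remaining 3 were in fewer, beside 23.4% of all regions. Fisher's exact test, two-sided with Benjamini-Hochberg adjustment, called 0 member regions and 0% of all regions by site, and 0 and 0% by medium. At an unadjusted p under 0.05 it passed 5.24% of all regions by site and 0.189% by medium, and 0 member regions. The test took all 12 libraries as independent, although the study derived these organoids from 3 mice, so its p values overstate the number of independent samples. By site the lowest adjusted p over all regions was 0.114 (Fisher's exact test). Even the clearest split of any region thus fell short, and the lack of calls says little about the members. The lowest member p was 0.0606 (adjusted 0.582) by site, for Rnf43 +20.6 kb in 6 proximal and 2 distal libraries. By medium it was 0.0606 (adjusted 1), for Ephb2 +74.1 kb and Myc +32.3 kb in 4 WENR-plus and 0 WENR-minus libraries.

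**Figure D4:**
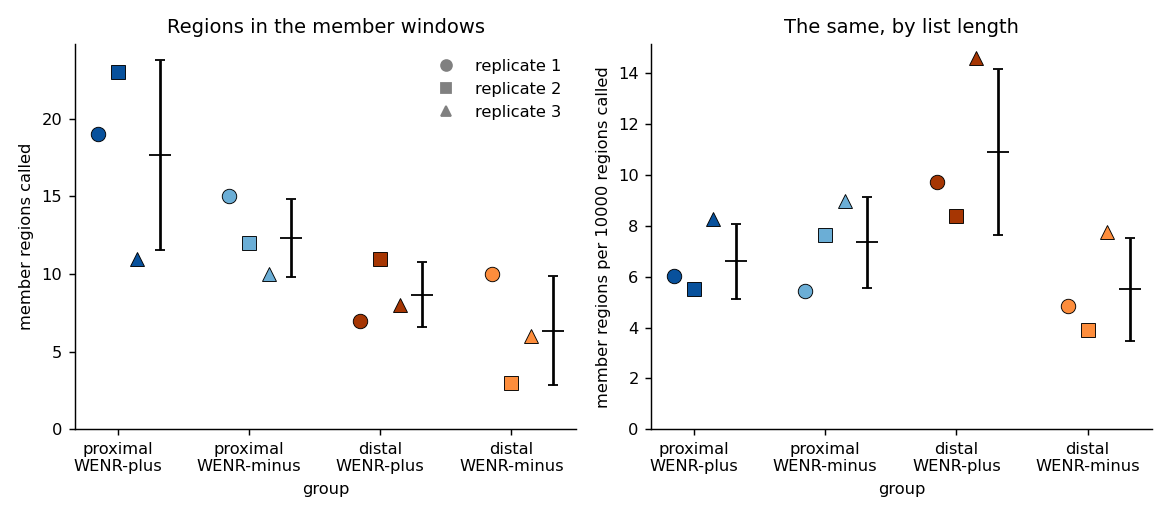
Number of member regions called in each library (left y axis) and the same per 10000 regions called in that library (right y axis), by group, with symbols for replicates and a bar for mean ± SD (n = 3). Proximal WENR-plus libraries hold 11 to 23 member regions and distal WENR-minus libraries 3 to 10, and per 10000 regions distal WENR-plus libraries lie at 8.4 to 14.6 and distal WENR-minus at 3.91 to 7.77.

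Libraries of proximal organoids held 17.7 ± 6.11 member regions (SD, n = 3) in WENR-plus and 12.3 ± 2.52 in WENR-minus. Those of distal organoids held 8.67 ± 2.08 in WENR-plus and 6.33 ± 3.51 in WENR-minus. Per 10000 regions called, the order of the groups was another one: 10.9 ± 3.27 in distal WENR-plus, 7.35 ± 1.79 in proximal WENR-minus, 6.6 ± 1.48 in proximal WENR-plus and 5.51 ± 2.01 in distal WENR-minus. On this scale the 3 distal WENR-plus libraries were above the 3 distal WENR-minus ones, and the proximal media overlapped. The scale does not remove list length: the shortest list, distal WENR-plus 3, had 14.6 and the longest, proximal WENR-plus 2, had 5.51. Distal WENR-minus 2, also short at 7895 peaks, had 3.91. How far list length made this order was not tested.

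Strength was then compared by limma on log2 fold, centred on the median of each library, at regions called in all 6 libraries of a comparison. No member region passed an adjusted p of 0.05. In WENR-plus medium, 5 member regions could be tested between sites, with differences of -0.47 to -0.21 (proximal minus distal). Their direction rested on the centring: without it the median of all regions tested shifted to 0.41, and the 5 differences ran from -0.04 to 0.23, with 3 of them above 0. The lowest adjusted p was 0.299, at Axin2 −13.3 kb, with a difference of -0.45 (SE 0.23), beside 2.54% of 2911 regions called. In WENR-minus, 2 were tested, with differences of 0.05 and 0.10 (SE 0.24 and 0.25, lowest adjusted p = 0.874), beside 3.57% of 3305 called. Between media in proximal organoids, 7 were tested, 3 of them above 0 in WENR-plus minus WENR-minus and 4 below 0, or 5 and 2 without centring, where the median of all regions was 0.16. At Rnf43 +18.4 kb the mean centred log2 fold was -0.035 in WENR-plus and -0.656 in WENR-minus, a difference of 0.62 (SE 0.25, adjusted p = 0.462 by limma). Of all 6005 regions 0% were called here, with 582 at an unadjusted p under 0.05. With the replicate block, 16 of the 6005 passed, none of them in a member window, and the adjusted p at Rnf43 +18.4 kb was 0.194. Between media in distal organoids, 2 were tested. At Rnf43 +47.1 kb the mean was 0.129 in WENR-plus and -0.47 in WENR-minus, a difference of 0.60 (SE 0.25, adjusted p = 0.439 by limma), beside 0.0409% of 2445 regions called. These were the largest of the 9 differences between media, and both fell short after adjustment. In simulated data a log2 change of 1 was recovered at 0% of changed regions between media in proximal and 54.5% in distal organoids, so differences of this size could be missed. A difference of the medium effect between sites was called at neither of the 2 Rnf43 regions testable over all 12 libraries (lowest adjusted p = 0.998, limma). Rnf43 +18.4 kb and +26.9 kb had no peak in distal WENR-minus libraries. They could therefore enter neither this fit nor the one between media in distal organoids, and neither result bears on them.

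**Figure D5:**
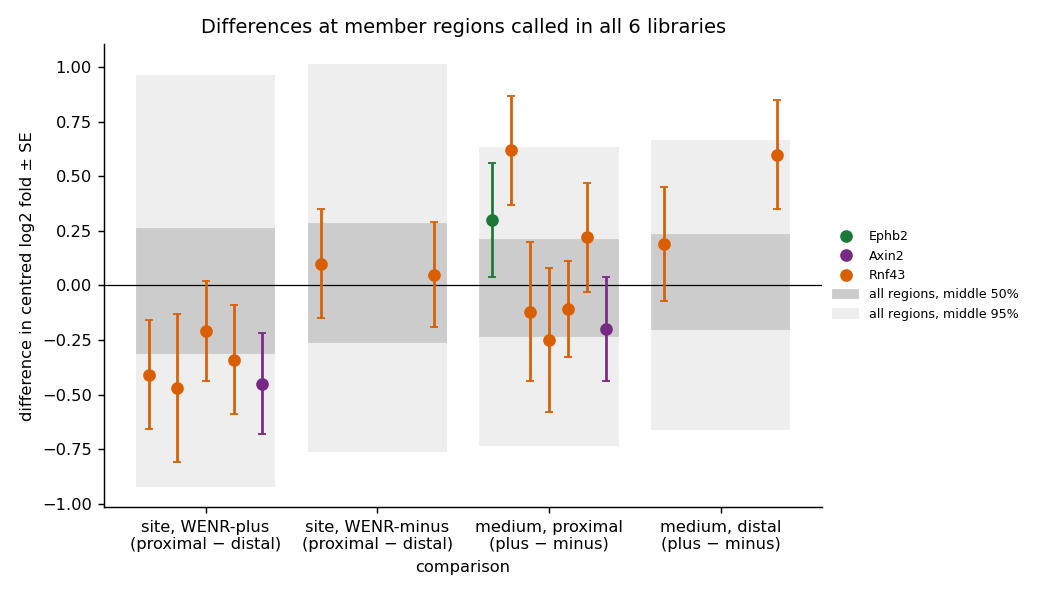
Difference in centred log2 fold ± SE (y axis) at each member region called in all 6 libraries of a comparison (x axis), coloured by gene, over bands for the middle 50% and 95% of all regions tested. The 5 regions tested between sites in WENR-plus lie below 0 on this centred scale (without centring 3 of them lie above 0), and Rnf43 +18.4 kb at 0.62 and Rnf43 +47.1 kb at 0.60 are the highest points between media.

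The windows were also set against those of other genes. Together the 10 windows covered 0.0644% of the chromosomes used and held 0.0488% of all regions. The median member had 1.79 regions per 100 kb of window, beside 1.88 for 21938 protein-coding genes, and Rnf43 at 4.05 stood at percentile 84 of these genes, Sox9 at 2.84 at percentile 68.2, Ephb2 at 1.04 at 35.7 and Ascl2 at 0.976 at 33.6. A region in all 12 libraries was found at 1 of 10 members, beside 12.9% of protein-coding genes. Among 18 other Wnt pathway and stem cell genes, 17 had a region (94.4%, beside 84.5% of protein-coding genes), 5 had one in all 12 libraries and the median was 3.23 per 100 kb. Those 5 were Prom1 and Lgr4 with 2 such regions each, and Cd44, Hopx and Cdca7 with 1 each. Lgr4, like Lgr5, encodes a receptor for R-spondin, and had 11 regions against 4 at Lgr5. Among 10 genes of differentiated colon cells, all had a region (100%, beside the same 84.5%), 5 had one in all 12 libraries and the median was 5.5 per 100 kb. Both comparison lists, like the members, were chosen with earlier results of these data known. The study itself gives Car1, 1 of these 10 genes, as an example of a gene bound by Cdx2. The contrast between the lists is therefore descriptive. Within 3 kb of a transcript start, a region was called at 9 of the 10 differentiation genes, at 6 of the 18 and at 3 of the 10 members. The share over all protein-coding genes was not computed, so these counts have no background. Among the members, such a region was in 1 library at Ephb3 and at Sox9 and in 12 at Rnf43. The most widely called one per gene was in 3 to 12 libraries at the differentiation genes and in 1 to 9 at the 6 others.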

How the data were processed

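Cdx2 was profiled by ChIPmentation, and the authors called peaks for each library against its matched input with MACS2 2.2.7.1 at q 0.01 on mm10 (per the submitters' processing notes, also Trimmomatic 0.39, Bowtie2 2.4.5 and SAMtools 1.13). The deposited lists gave a fold ratio to input, −log10 p, −log10 q and a score for each peak, and the distance of its summit from the peak start. The 63 to 104 peaks per list outside the autosomes 1 to 19 and the sex chromosomes were left out, and 5608 to 42192 peaks per library remained. The lists carry no read totals, so the number of replicates and the list length limit the precision. The study reports sequencing depth and the share of reads in peaks for each library, and neither was used here. By its values the longest list, proximal WENR-plus 2, had the highest share of reads in peaks. The shortest list, distal WENR-plus 3, had the lowest. Overlapping peaks were joined into regions, which took the highest fold of a library. Genes and transcripts came from GENCODE vM21 and sequence from the GRCm38 reference, the assembly behind mm10. Presence was compared by counts and Fisher's exact test (scipy 1.17.1), strength by limma 3.58.1 in R 4.3.3 on centred log2 fold computed from the deposited ratios, both adjusted over all regions tested, and checked on simulated data. The deposited score and −log10 p were not tested. The members and lists were chosen with earlier results of these data known. Described regions were those in all 12 libraries, those in all libraries of one group and none of another, and the one in the most libraries for each gene. Replicate numbers were taken as pairs where the deviations of all 3 same-numbered pairs correlated above 0.1. This held for media in proximal organoids (r 0.117 to 0.57) and not for the other 3 comparisons. Differently numbered pairs of the same comparison reached r 0.183 (proximal WENR-plus 1 with WENR-minus 2), so the cut-off does not establish pairing. The main limma fits used no pairing, and the replicate block was an alternative. In the study's own comparison of Cdx2 binding, the mouse of origin accounted for the largest share of variation. Alternatives were stricter peaks, lists of equal length, other windows and summit rules, other scales, the replicate block and each library left out.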

Additional observations from a re-analysis of the deposited data

How the results depend on the processing

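Counts of regions rested on how many peaks each list held. With lists cut to 5608 peaks the windows held 15 regions, with 1 in every library, 0 in all proximal and no distal libraries in WENR-minus, 0 in all WENR-plus and no WENR-minus libraries in proximal organoids and 1 in distal organoids. With only peaks of −log10 q of at least 5, and likewise with only peaks of fold of at least 5, the count for media in proximal organoids was 0, while Rnf43 +18.4 kb and +26.9 kb stayed between media in distal organoids. Between sites in WENR-minus these settings gave Rnf43 +20.6 kb and +26.9 kb, without +18.4 kb. A 20 kb window held 19 regions, and a 100 kb window 4 regions in every library. With a window of 100 bp for the Cdx2 letters the share was 73.3%. Leaving out 1 library gave 0 to 4 regions in all proximal and no distal WENR-plus libraries, 2 to 3 in WENR-minus, 2 to 3 between media in proximal and 2 in distal organoids. The difference at Axin2 −13.3 kb between sites in WENR-plus was -0.02 without centring and 0.25 on normal scores of the percentile, and at Rnf43 +34.7 kb in WENR-minus it was -0.11 to 0.34 with 1 library left out, -0.11 of these without distal WENR-minus 2, and the cause was not tested. In no alternative did limma or Fisher's exact test call a member region after adjustment. Over all regions, limma calls between sites ran from 0 (normal scores) to 361 (no centring) in WENR-plus, where the count was 0 without proximal WENR-plus 1 or 2 or distal WENR-plus 2, 1 without distal WENR-plus 3, 8 without distal WENR-plus 1 and 294 without proximal WENR-plus 3. In WENR-minus they ran from 0 to 353, with 4 to 134 when 1 library was left out. The replicate block gave 336, 280, 16 and 14 calls for sites in WENR-plus and WENR-minus and media in proximal and distal organoids, against 74, 118, 0 and 1, and changed no call at a member region. Equal list lengths gave 41 and 63 calls between sites, and a fit of all 12 libraries 129 and 62.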
